A study of Mus musculus with 9 samples.

Results

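The comparison described here is a single step in the life of 1 cell line: mouse embryonic stem cells (ESC) of line 4J, which carry doxycycline-inducible Sox17, after 49 h and after 6 days with 100 ng/ml doxycycline (dox). It was chosen by its labels, as the day 6 column against the 49 h column of the deposited table, and it covers 2 of 9 RNA libraries. The other 7 are the same line without dox and at 7, 21 and 35 h, Sox17-XEN (30 days with dox and 30 days without it), and the wild-type lines R1 ESC and IM8AR XEN. XEN cells are extraembryonic endoderm stem cells, which grew in serum and fibroblast-conditioned medium, while ESC grew in serum and LIF on mouse embryonic fibroblasts that serve as feeder cells. Both libraries of the step come from the Sox17 line under dox, and their label still names the cell type as ESC at day 6. The description of the day 6 sample also holds the word SORT, with no further detail. No culture of the same age without dox was analysed here. Time, any sorting and the feeder content therefore cannot be told apart, and each group is 1 library of 1 line, without a replicate, a test or an error for any difference.

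Sox17 is an SRY-related transcription factor of the endoderm. In the blastocyst the inner cell mass sorts into epiblast, which keeps Nanog and Sox2, and primitive endoderm, which turns on Gata6, Sox17 and Gata4 and then forms visceral and parietal endoderm. Visceral endoderm is a polarised absorptive epithelium: cubilin, its membrane partner amnionless and megalin pull proteins from the maternal side into lysosomes, and the cells secrete apolipoproteins and other carriers. Parietal endoderm instead lays down a thick basement membrane rich in laminin and type IV collagen.

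Levels are given in FPKM (fragments scaled by transcript length and library size), and differences are day 6 minus 49 h in log2(FPKM + 1), which understates the change of low genes. A gene is called higher or lower when it differs by at least 2 log2 units, which is 4-fold in FPKM + 1. Of 37975 rows, 440 were not OK in at least 1 of the 2 libraries and 24065 stayed under 1 FPKM in both, which left 13470 genes. Dscaml1 was just inside that minimum, at 0.833 FPKM at 49 h and 1.0 FPKM at day 6, and Edn1 just outside it, at 0.999 and 0.0244 FPKM. Low FPKM values of the day 6 library point to a depth of 62.5% of that at 49 h, although only 8.89% and 7.32% of the low values in the 2 libraries share the ratio this rests on. The lower confidence bound in the deposited table was 0 for 98.9% of the values of at least 1 FPKM at 49 h and for 98.2% at day 6. The authors' deposited intervals were apart for 2 of the called genes, Lama1 and Sparc.

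Between 49 h and day 6, 561 genes were higher and 521 lower, 4.16% and 3.87% of those compared (8.03% together). The counts given for each gene list below are to be read beside these shares. The genes that were higher had a median of 4.54 FPKM at 49 h and 38.4 FPKM at day 6, and 140 of them reached 100 FPKM or more. Those that were lower had a median of 13.9 FPKM at 49 h and 0.951 FPKM at day 6, where 265 of the 521 were under 1 FPKM and 1 was still at 100 FPKM or more. Of the higher genes 505 and of the lower genes 448 are protein-coding. The median gene at 5 FPKM or more in both libraries stood 0.23 log2 units higher at day 6. With that shift removed the counts were 413 and 675. Higher genes then made up 38.0% of the calls, in place of 51.8%. The bulk of the transcriptome lay near the diagonal, as the plot of the 2 libraries against each other shows, with 92.0% of genes within the limit.

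Earlier consecutive libraries of the course differed far less. From no dox to 7 h 118 genes were past 2 log2 units (0.907%), from 7 to 21 h 115 (0.874%), from 21 to 35 h 70 (0.533%) and from 35 to 49 h 105 (0.808%). From day 6 to Sox17-XEN the number was 987 (7.58%). The intervals between libraries are unequal, so these counts are not rates.

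**Figure D1:**
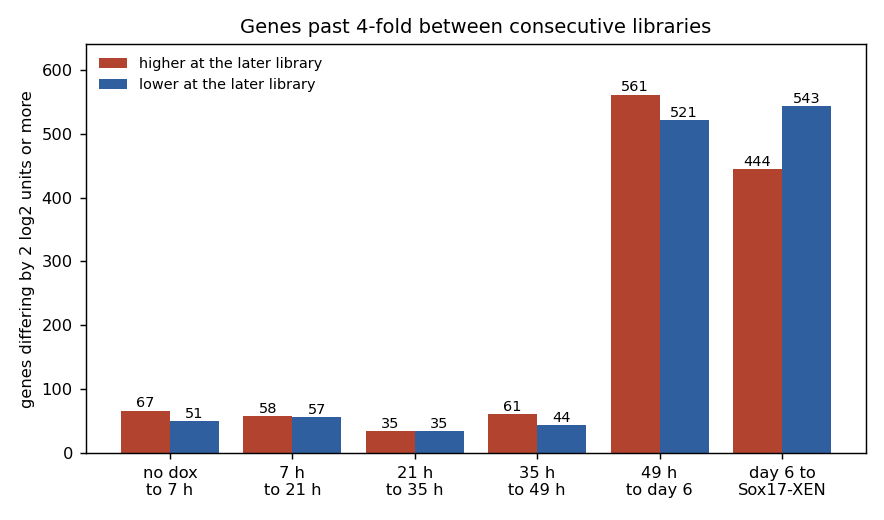
Number of genes (vertical axis) that were higher or lower by 2 log2 units or more between consecutive libraries, 1 library each. The step from 49 h to day 6 has 561 and 521 genes, against at most 67 in either direction in the 4 earlier steps.

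The inducing factor itself did not pass the limit. Sox17 (chr1:4481009-4486494 in mm9, the build of all gene positions given) was at 0.909, 283, 281, 191, 151 and 71.1 FPKM in the libraries without dox, at 7, 21, 35 and 49 h and at day 6. It was highest at 7 h, and its difference in the step was -1.08. Sox17-XEN had 101 FPKM and wild-type XEN 239 FPKM. FPKM of the gene does not separate the transgene from the endogenous copy.

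The apical receptor complex for protein uptake stood at the head of the genes that were higher. Cubn (chr2:13193229-13413551), which codes for the peripheral receptor cubilin, had the largest upward difference among genes that reached 10 FPKM, 6.87. Its level was 0.448, 0.234, 0.489, 0.847 and 7.03 FPKM from no dox to 49 h and 939 FPKM at day 6, with 0.174 in R1 ESC, 15.5 in Sox17-XEN and 118 in wild-type XEN. Cubilin was thus higher at day 6 than in any other library of the series. Amn (chr12:112509322-112514637), which codes for the membrane anchor of cubilin, was at 1.05, 0.602, 4.33, 4.52 and 7.06 FPKM from no dox to 49 h and 356 FPKM at day 6, a difference of 5.47. Unlike cubilin it was under 1 FPKM in all other lines, at 0.865 in R1 ESC, 0.680 in Sox17-XEN and 0.823 in wild-type XEN. Lrp2, the megalin gene, was at 3.51, 9.33, 9.38, 5.72 and 10.4 FPKM up to 49 h and at 307 FPKM at day 6 (4.76), against 9.0 and 20.7 FPKM in the 2 XEN lines.

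Intracellular partners of these receptors were higher as well. Dab2, the clathrin adaptor of megalin, went from 52.1 to 1133 FPKM (4.42). Lrpap1, the chaperone of megalin, went from 168 to 2034 FPKM (3.59). The endocytic motor gene Myo6 went from 11.4 to 284 FPKM (4.52), so that chaperone, adaptor and motor were all past the limit. The endosomal chloride exchanger Clcn5 went from 10.6 to 48.2 FPKM (2.08). It was within the limit after rescaling, which left 6 members past it. In total 7 of 15 uptake receptors and adaptors were higher and 0 lower, with a median of 1.82 against 0.15 over all genes compared. Lrp1 and Vldlr, receptors of the megalin family outside this complex, were within the limit: Lrp1 stood at 55.6 and 17.0 FPKM (-1.65), and Vldlr had 1.82.

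**Figure D2:**
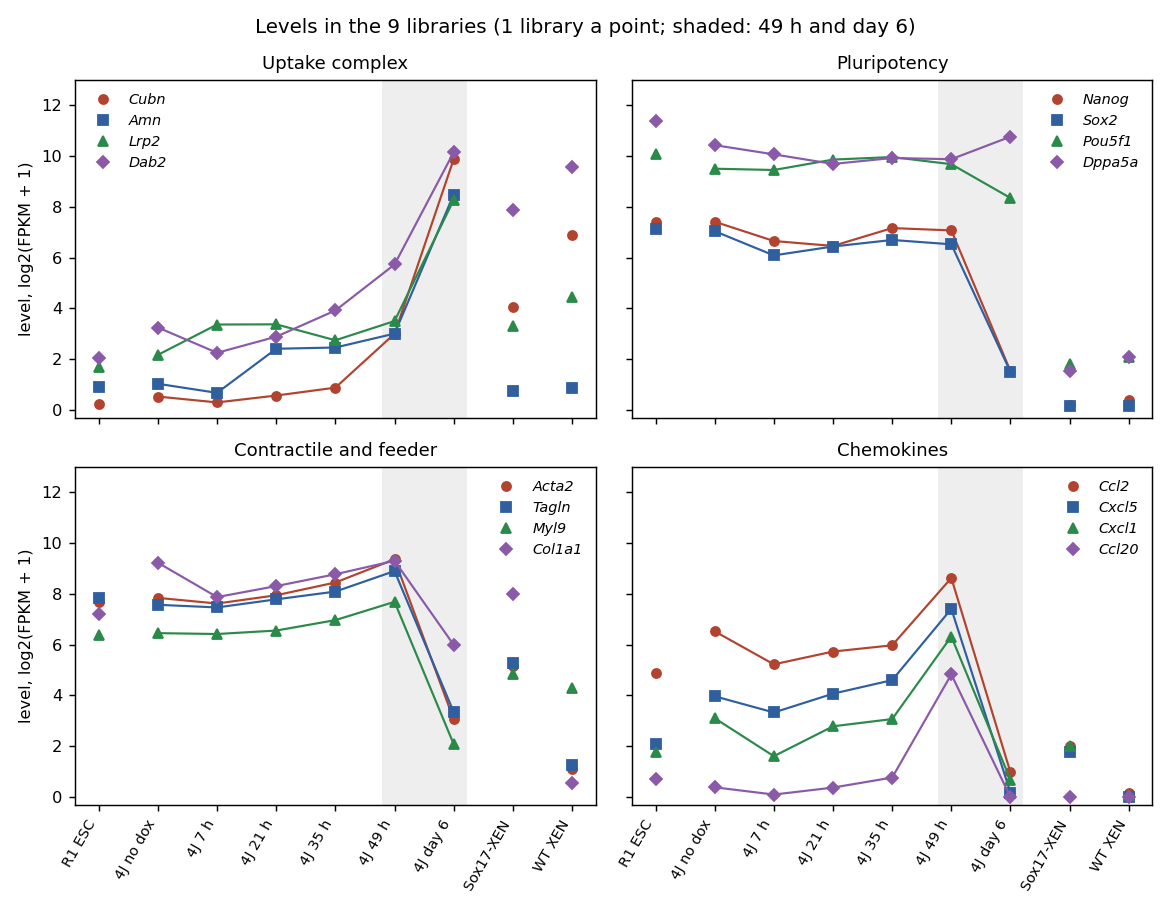
Levels as log2(FPKM + 1) on the vertical axis in the 9 libraries on the horizontal axis, for 4 genes in each of 4 groups, with lines through the dox course (time not to scale) and the 2 libraries of the step shaded. Cubn, Amn, Lrp2 and Dab2 peak at day 6, Nanog and Sox2 fall to under 2 FPKM there while Pou5f1 and Dppa5a stay above 300 FPKM, and the chemokine genes peak at 49 h.

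Membrane genes of an absorptive surface belonged to the same side. Of 17 apical and brush-border genes 9 were higher and 1 lower, with a median of 2.28. The intracellular chloride channel gene Clic6 went from 1.33 to 82.5 FPKM (5.17) and its relative Clic5 from 0.479 to 17.7 FPKM (3.66). Surface peptidases were higher: Dpp4 went from 2.0 to 53.7 FPKM (4.19) and Enpep from 0.0360 to 12.8 FPKM (3.73). Cdhr2, a protocadherin that links microvilli, went from 0.109 to 9.44 FPKM (3.24), and the membrane mucin gene Muc13 had 3.92. The scaffold genes Eps8 and Pdzk1 and the sialomucin gene Podxl were the other higher members. Cobl, an actin nucleator, was the 1 lower member, at 7.08 and 0.465 FPKM (-2.46). The textbook brush-border genes were not all present: Vil1 (villin) was at 1.36 FPKM at day 6, and Cdhr5, Myo7b, Myo1a, Ush1c and the intestinal disaccharidase gene Sis were under 1 FPKM in both libraries. Car4, a membrane-anchored carbonic anhydrase on no list, went from 6.68 to 652 FPKM (6.41), with 15.7 in R1 ESC, 1.30 in Sox17-XEN and 23.7 in wild-type XEN. Ggt1, which splits glutathione at the cell surface and was picked out after its values were seen, went from 1.76 to 93.6 FPKM (5.10).

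Secreted and metabolic genes of visceral endoderm had a median of 3.0. Of 19 compared 15 were higher and 0 lower. Apoe, which codes for a lipoprotein component, had the highest level: 282, 276, 304, 394 and 415 FPKM from no dox to 49 h and 6772 FPKM at day 6 (4.03). It was at 434 in R1 ESC, 32.1 in Sox17-XEN and 296 in wild-type XEN, so day 6 stood above every other library. Mttp, which loads lipid onto apolipoprotein B, went from 1.40 to 137 FPKM (5.85). Soat2, which esterifies cholesterol for lipoprotein export, went from 1.30 to 79.1 FPKM (5.12). The retinol carrier gene Rbp4 went from 0.550 to 32.6 FPKM (4.44). All 3 were under 2 FPKM at 49 h. Apom (1.39 to 43.5 FPKM, 4.22) and Apoc2 (0.0582 to 21.0 FPKM, 4.38) code for further lipoprotein components. Smaller in level were Apoa1 (13.8 FPKM at day 6, 3.71), Apob (7.29 FPKM, 2.70), Ttr (15.1 FPKM, 3.82) and Afp (6.04 FPKM, 2.79). These 4 genes were each under 0.3 FPKM at 49 h. Albumin (Alb) was listed at 0 in both libraries, Trf (transferrin) was at 1.14 and 1.80 FPKM, and the fibrinogen genes Fga and Fgg were under the minimum while Fgb reached 8.84 FPKM (3.0). Ihh, the hedgehog ligand of visceral endoderm, went from 0.176 to 16.6 FPKM (3.91). In bulk RNA, more cells of a type and more RNA per cell cannot be told apart.

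Several of these genes were at low levels in both XEN lines. Apoc2 was at 0.672 FPKM in Sox17-XEN and listed at 0 in wild-type XEN, Apom at 0.588 and 0.542 FPKM, Apob at 0.117 and 0.0173 FPKM, and Apoa1 at 0.839 and 0.115 FPKM. Mttp, Rbp4 and Ttr were not, with 57.7 and 70.6 FPKM, 6.63 and 55.2 FPKM, and 4.77 and 22 FPKM.

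Transcription factors of primitive endoderm were higher in 10 of 13 cases, with 1 lower and a median of 2.65. Gata4 was at 0.824, 1.96, 4.57, 13.1, 32.0 and 303 FPKM from no dox to day 6 (3.20 in the step) and Gata6 at 0.282, 0.285, 1.96, 5.86, 9.84 and 84.8 FPKM (2.98). Each library of the course had more of both than the one before it. In Sox17-XEN they were at 659.6 and 210.0 FPKM and in wild-type XEN at 337 and 99.9 FPKM. Hnf4a, a nuclear receptor of visceral endoderm and liver, stood at 0.216, 0.192, 0.212, 0.444, 1.70 and 36.8 FPKM and had a difference of 3.81. Cited1, a transcriptional co-regulator, went from 6.2 to 161 FPKM (4.49), the largest difference of the list. Others were Pdgfra (3.60), a growth factor receptor that marks this lineage, Tfec (3.0), Foxq1 (2.64), Sox7 (2.55) and Foxa2 (2.14, within the limit after rescaling). The exception was Foxa1, which was at 0.167, 2.62, 5.64, 5.45, 4.12 and 0.181 FPKM from no dox to day 6 (-2.12): it was present from 7 to 49 h and almost gone at day 6.

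Since Gata4 and Gata6 were at their highest of the course at day 6, the promoters of 3 genes that were higher are shown with the words AGATAA and TGATAA in capitals (both strands were searched, and the words overlap none of the other motifs given further on). Promoter sequences are those RefSeq gives for GRCm38.p6, a later build than that of the files, from 250 bases before to 50 bases after a listed start. A promoter was listed for 9069 of the 13375 compared symbols. The stretches of 100 bases, read 5′ to 3′ on the strand of the gene, end 1 base before the start for Hnf4a and Lgals2 and 101 bases before it for Dab2.
Hnf4a: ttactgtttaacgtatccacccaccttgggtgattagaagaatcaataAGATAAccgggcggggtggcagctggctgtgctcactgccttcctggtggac
Dab2: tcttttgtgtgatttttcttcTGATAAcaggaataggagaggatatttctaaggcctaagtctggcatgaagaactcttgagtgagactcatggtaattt
Lgals2: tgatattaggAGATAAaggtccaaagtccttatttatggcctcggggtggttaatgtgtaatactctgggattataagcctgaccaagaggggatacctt
They lie at chr2:163506757-163506856 on the plus strand, chr15:6299589-6299688 on the plus strand and chr15:78855530-78855629 on the minus strand. The matches begin 52, 179 and 90 bases before the start. Such a word was found in 18.6% of all 300-base promoters in the table, in 14.5% of the higher genes with a listed promoter and in 11.7% of all compared genes with one (any listed start). A match is a string of letters and shows no binding. Of the 7 regulators with a listed promoter 3 held one (Foxa2, Hnf4a and Tfec), and of 14 visceral endoderm genes 3 (Apoa1, Apoc2 and Fgb). Lgals2, which codes for a galectin, was at 0.248 FPKM at 49 h and 129.9 FPKM at day 6 (6.71).

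Parietal endoderm markers were split. Of 13 compared 7 were higher and 2 lower, with a median of 2.57. The water channel gene Aqp8 (0.577 to 93.4 FPKM, 5.90), the proteoglycan gene Srgn (31.4 to 1517 FPKM, 5.55), the heparan sulfate sulfotransferase gene Hs3st1 (3.27 to 141 FPKM, 5.06) and the parathyroid hormone receptor gene Pth1r (9.63 to 175 FPKM, 4.05) were higher. Sparc, a matrix glycoprotein gene, went from 686 to 6058 FPKM (3.14). Other markers of the same list stood far below their XEN levels. Plat was at 7.45 and 13.6 FPKM, against 408 in Sox17-XEN and 248 in wild-type XEN. Thbd was at 12.8 and 5.94 FPKM, against 208 and 134, and Fst at 16.8 and 7.41 FPKM, against 395 and 711. Vim went from 539.9 to 114 FPKM (-2.24) and Ctgf from 237 to 27.2 FPKM (-3.08), while both XEN lines had more of each than day 6 had: 567 and 665 FPKM of Vim, and 475 and 1663 FPKM of Ctgf.

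Matrix genes divided by kind. The subunits of laminin-111 were higher together: Lama1 went from 53.5 to 1169 FPKM (4.42), Lamb1 from 106 to 1705 FPKM (4.00) and Lamc1 from 95.5 to 1134 FPKM (3.56). Nid2, which bridges laminin and collagen IV, went from 62.3 to 510.5 FPKM (3.01). Col4a1 (308 FPKM at 49 h) and Col4a2 (158 FPKM) have no usable day 6 value, since the authors' deposited table lists them at 0 with the status HIDATA, which marks too many fragments at a locus. Col18a1 (81.2 to 11.2 FPKM, -2.75) and Col4a5 (9.31 to 1.13 FPKM, -2.27) were lower. Together 4 of 15 basement membrane genes were higher and 2 lower (median 1.46).

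Collagen-processing enzymes and chaperones were higher in 9 of 16 cases, with a median of 2.07, and in 5 cases after rescaling (median 1.84). The prolyl hydroxylase gene Leprel1 went from 1.96 to 36 FPKM (3.64) and P4ha2, which codes for a subunit of another prolyl hydroxylase, from 41.6 to 348 FPKM (3.04). Plod2, which hydroxylates lysine, went from 42.0 to 327 FPKM (2.93). The collagen chaperone gene Serpinh1 went from 229 to 1809 FPKM (2.98). The 2 lower members act outside the cell: Lox, which cross-links fibrillar collagen, went from 202 to 15.9 FPKM (-3.58) and Pcolce, which enhances procollagen cleavage, from 91.7 to 11.8 FPKM (-2.86). Both were low in wild-type XEN, at 0.208 and 5.49 FPKM.

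Lysosomal genes all leaned one way. Of 24 hydrolases and membrane proteins 11 were higher and 0 lower, all 24 differences were above 0, and the median was 1.91. Lgmn, the asparaginyl protease legumain, was at 23.5, 17.4, 20.6, 23.3 and 33.8 FPKM from no dox to 49 h and 1490.5 FPKM at day 6 (5.42), near its level in wild-type XEN (1575 FPKM). Ctsl, a cysteine protease, went from 273 to 4715 FPKM (4.11), the highest day 6 level of the list. Ctsc (7.82 to 323 FPKM, 5.20), Ctsh (12.3 to 473 FPKM, 5.15), Ctsz (82.9 to 860.0 FPKM, 3.36) and the hexosaminidase subunit Hexa (30.0 to 247 FPKM, 3.0) followed. Ctsc and Hexa were far lower in Sox17-XEN, at 18.3 and 28.2 FPKM. Members within the limit included Ctsd (242 and 484 FPKM), Lamp1 (151 and 527 FPKM) and Psap (185 and 297 FPKM). Plbd1, a lysosomal phospholipase-like gene on no list, went from 0.446 to 57.4 FPKM (5.34), with 0.754 in R1 ESC, 0.237 in Sox17-XEN and 0.0978 in wild-type XEN.

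The palindrome CACGTG, the core E-box letters, is shown in capitals in the promoter of Lgmn, and in that of Amn from the uptake complex, as 2 of the genes with the largest differences.
Lgmn: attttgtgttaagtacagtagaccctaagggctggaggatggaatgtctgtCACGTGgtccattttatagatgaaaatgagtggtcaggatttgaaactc
Amn: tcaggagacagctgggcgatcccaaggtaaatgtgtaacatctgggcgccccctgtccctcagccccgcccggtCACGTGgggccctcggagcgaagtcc
These stretches end 1 base before a listed start, at chr12:102439093-102439192 on the minus strand and chr12:111270996-111271095 on the plus strand, and the matches begin 49 and 26 bases before it. Of 17 lysosomal genes with a listed promoter 7 held the palindrome (Ctsa, Ctsd, Ctsl, Gla, Glb1, Lamp1 and Lgmn), against 12.0% of all compared genes with a promoter and 7.15% of all promoters. Of the higher genes as a whole 12.9% held it. Members with and without the letters were both among the higher genes: Ctsz and Hexa have a listed promoter without it.

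Secretory machinery moved less. Of 23 endoplasmic reticulum genes 2 were higher, the membrane-bound factor Creb3l2 (7.73 to 62.7 FPKM, 2.87) and the retrieval receptor Kdelr3 (33.4 to 195 FPKM, 2.51), while 22 of 23 differences were above 0 and the median was 1.15. The chaperone genes Hspa5 and Calr had 1.18 and 1.40. Of 17 transporters 6 were higher (2 after rescaling) and 1 lower: the zinc and manganese importer Slc39a8 (2.63 to 34.2 FPKM, 3.28), the cystine carrier Slc7a9 (1.0 to 12.4 FPKM, 2.74) and the sulfate carrier Slc13a4 (0.214 to 4.42 FPKM, 2.16) led, and the arginine carrier Slc7a3 (16.5 to 0.685 FPKM, -3.38) was lower. The lactate carriers Slc16a1 (2.03) and Slc16a3 (2.04) were just past the limit, and after rescaling they and Slc13a4 (1.93) were within it. Slc2a3, a glucose transporter listed with pluripotency genes, stood at 354 and 1256 FPKM (1.82).

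Blood coagulation genes and retinoid genes were higher in part. Habp2, a plasma serine protease gene, went from 1.26 to 120.0 FPKM (5.75) and F2, the prothrombin gene, from 0.512 to 52.6 FPKM (5.15). The anticoagulant gene Pros1, for protein S, went from 16.9 to 107 FPKM (2.59) and the inhibitor gene Tfpi from 94.7 to 479 FPKM (2.33). These 4 of 16, which hold both a clotting factor and its brakes, were higher, and the 3 lower included Serpinf1 (-2.85) and Plau (-2.41). Of 11 retinoid genes 4 were higher and 0 lower: Rbp4, given above, Cyp26a1, which degrades retinoic acid (4.59 to 88.6 FPKM, 4.00), the retinol receptor Stra6 (0.695 to 15.4 FPKM, 3.28) and the retinol dehydrogenase Rdh10 (2.05, and 1.82 after rescaling). Stra6 remained far below Sox17-XEN and wild-type XEN (324 and 116 FPKM).

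Among further genes with the largest differences were the heparan sulfate proteoglycan Gpc3 (9.54 to 920.0 FPKM, 6.45), the calcium-binding S100g (0.990 to 97.7 FPKM, 5.63), the glycosyltransferase B4galnt2 (0.481 to 71.9 FPKM, 5.62) and the X-linked RNA export family member Nxf7 (3.29 to 227 FPKM, 5.73). Nxf7 and B4galnt2 were at like levels in the XEN lines (188 and 293 FPKM, 85.1 and 63.0 FPKM), while Gpc3 was at 6.98 and 77.6 FPKM. Of the 15 genes with the largest upward differences, Cubn, Lgals2, Gpc3, Habp2, S100g, B4galnt2 and Ctsc have a locus that another row also lists, so their values are less certain.

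**Figure D3:**
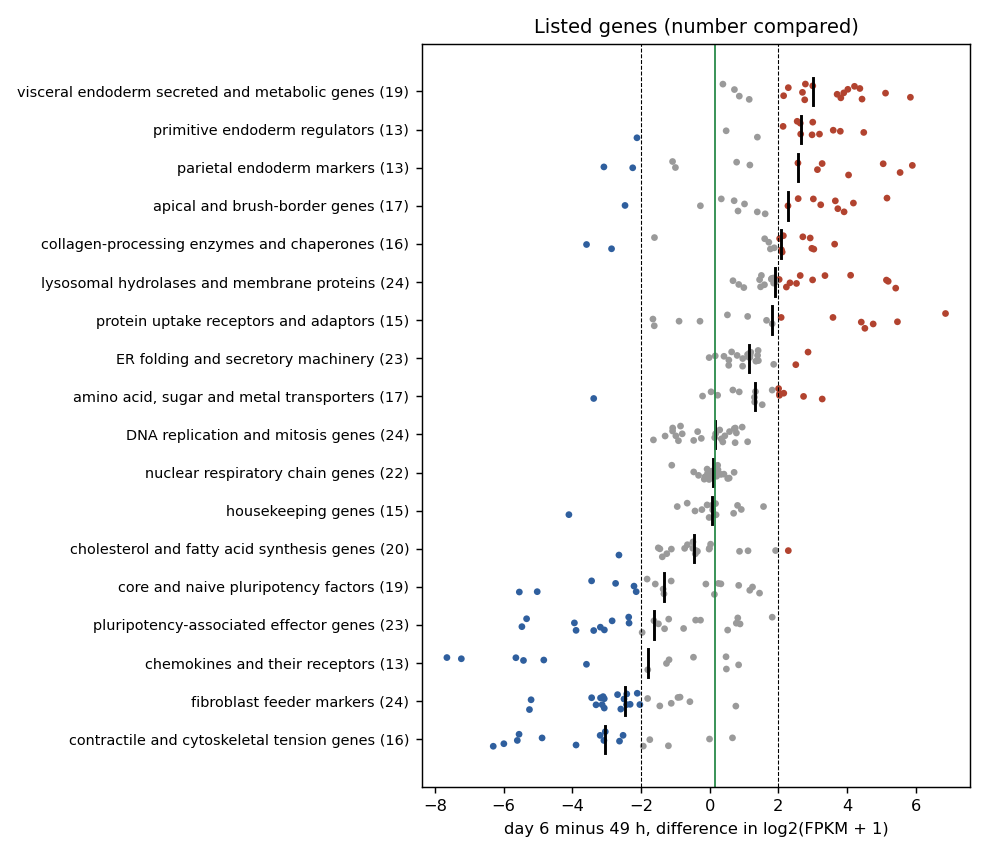
Difference between day 6 and 49 h in log2(FPKM + 1) (horizontal axis) for the genes of 18 lists (vertical axis, number compared in brackets), 1 point a gene, black bars at the list medians. Dashed lines mark 2 log2 units and the green line the median of all genes, 0.15. Medians run from 3.0 for visceral endoderm to -3.06 for contractile genes.

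Pluripotency factors separated into some that were lower and others within the limit. Nanog (chr6:122657507-122664651) was at 169, 99.7, 87.0, 142 and 134 FPKM from no dox to 49 h and 1.89 FPKM at day 6 (-5.54). Sox2 was at 131, 67.0, 85.7, 103 and 91.0 and then 1.84 FPKM (-5.02). Neither passed the limit in any earlier step, and both were below 0.4 FPKM in the 2 XEN lines. Lower too were the naive-state factors Klf2 (17.6 to 0.719 FPKM, -3.44), Prdm14 (-2.74), Nr5a2 (-2.20) and Nr0b1 (-2.14), which makes 6 of 19 core factors lower and 0 higher, with a median of -1.33. Esrrb was not OK in either library. The label ESC at day 6 thus stands beside Nanog and Sox2 at under 2 FPKM.

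The rest of the core list was within the limit, and the following members were picked out after their values were seen. Pou5f1, which codes for Oct4, was at 723, 698, 927, 994, 817 and 325 FPKM from no dox to day 6 (-1.33), against 2.54 and 3.22 FPKM in the XEN lines. Utf1 stood at 203 and 79.0 FPKM, Zfp42 at 143 and 39.7 FPKM and Tcl1 at 15.1 and 16.7 FPKM, all 3 lower in XEN. Klf4 (32.9 and 91.9 FPKM), Klf5 (40.8 and 93.1 FPKM) and Tbx3 (31.7 and 76.8 FPKM) had positive differences of 1.45, 1.17 and 1.25. Sall4, shared by ESC and XEN, stood at 56.2 and 67.3 FPKM.

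Effector genes of the pluripotent state showed the same split, with 10 of 23 lower, 0 higher and a median of -1.62. Tdgf1, the Nodal co-receptor Cripto, went from 89.2 to 1.04 FPKM (-5.47). Its ligand family member Gdf3 went from 19 to 0.353 FPKM (-3.89) and the Nodal inhibitor gene Lefty2 from 59.2 to 2.93 FPKM (-3.94). Dppa3, also called Stella and a protector of the maternal genome in the early embryo, was at 26.5, 27.6, 32.6, 50.5 and 59.1 FPKM from no dox to 49 h and 0.494 FPKM at day 6 (-5.33), so its highest value of the course came just before its lowest. The dehydrogenase gene Hsd17b14 went from 9.52 to 0.160 FPKM (-3.18). Dppa5a, in contrast, was at 1375, 1069, 823, 968 and 937 FPKM and then 1733 FPKM (0.89), against 1.87 and 3.27 FPKM in XEN. Dppa2 and Dppa4 were at 17.8 and 27.6 FPKM at day 6.

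Primed epiblast and germline genes held calls in both directions, and the compared 2-cell genes held 0. Of 11 primed epiblast genes 1 was higher, the tight junction gene Cldn6 (62.1 to 657 FPKM, 3.38), and 1 lower, Cdh2 (13.4 to 1.13 FPKM, -2.75), with Fgf5 at 1.22 FPKM. Of 11 germline genes Dppa3, Prdm1 (-3.34) and Nanos3 (-2.14) were lower and Sycp3, a synaptonemal complex gene, was higher (3.87 to 34.3 FPKM, 2.86). The 3 compared 2-cell genes, Zscan4c, Zscan4d and Zscan4f, stood at under 0.3 FPKM at day 6.

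Signalling genes went in both directions. Nodal and BMP ligands act through SMAD proteins and pattern the early embryo. In the Nodal and BMP group 7 of 20 were lower and 3 higher. The lower ones were Tdgf1, Gdf3 and Lefty2, given above, with Lefty1 (51.7 to 1.86 FPKM, -4.20), a Nodal inhibitor, and the BMP-responsive Id3 (57.4 to 5.98 FPKM, -3.07), Id4 (-2.46) and Smad6 (-2.16). The higher ones included the ligands Bmp2 (1.94 to 12.1 FPKM, 2.16, and 1.93 after rescaling) and Bmp6 (6.76 to 40.7 FPKM, 2.42). Nodal itself stood at 13.3 and 6.01 FPKM (-1.03).

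In the FGF and ERK group 6 of 21 were higher and 4 lower. Receptor genes differed in direction. Fgfr4 went from 2.25 to 31.4 FPKM (3.32) and the co-receptor gene Klb from 7.95 to 102 FPKM (3.52), a pair known to bind endocrine FGFs together. Fgfr3 went from 3.41 to 35.0 FPKM (3.03), while Fgfr1 went from 49.4 to 8.55 FPKM (-2.40). Fgfr2 stood at 26.4 and 37.8 FPKM, in both libraries above its XEN levels of 1.27 and 2.35 FPKM. Of the ligands, Fgf3 (0.729 to 10.9 FPKM, 2.79) and Fgf10 (3.72 to 29.8 FPKM, 2.71) were higher and Fgf4 (5.15 to 0.210 FPKM, -2.35) lower. The ERK-induced genes Dusp6 (23.5 to 3.87 FPKM, -2.33) and Etv5 (94.8 to 19 FPKM, -2.26) were lower. Egr1, which is also on the list of immediate early genes given below, was higher (3.91 to 23.1 FPKM, 2.29). It had -2.95 from no dox to 35 h. Within the limit were Spred1 (-1.99), Fosl1 (-1.61), Spry4 (-1.46), Spred2 (-0.96), Etv4 (-0.60), Spry1 (-0.40), Spry2 (-0.01) and Dusp4 (0.13).

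Wnt and anterior visceral endoderm genes overlap in Dkk1, a secreted Wnt inhibitor. Dkk1 was at 0.0958, 0.0345, 0.0751, 1.04 and 4.67 FPKM from no dox to 49 h and 45.4 FPKM at day 6 (3.03), with 0.0437 in R1 ESC, 1.30 in Sox17-XEN and 8.20 in wild-type XEN. Of 14 anterior visceral endoderm genes 4 were higher, Dkk1, the protease gene Tmprss2 (0.448 to 28.1 FPKM, 4.33), Hhex (2.61 to 17.8 FPKM, 2.38) and Sfrp5 (0.912 to 8.15 FPKM, 2.26), and 2 lower, Lefty1 and Trh (111 to 1.74 FPKM, -5.36), the gene of a hormone precursor that ESC also express. Cer1 and Lhx1 were at 0.249 and 1.55 FPKM at day 6. Of 15 Wnt genes 3 were higher (1 after rescaling), Dkk1, Wnt11 (3.32 to 18.9 FPKM, 2.20) and Rnf43 (0.201 to 4.21 FPKM, 2.12), the last 2 within the limit after rescaling, and 3 lower, Wnt7b (23.5 to 0.992 FPKM, -3.62), Notum (-2.18) and Wnt5a (-2.05). Axin2, a common target, stood at 2.42 and 3.07 FPKM.

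Fibroblast genes were the next large group that was lower. Of 24 feeder markers 17 were lower and 0 higher, with a median of -2.46. Col1a1, the type I collagen gene, was at 597, 233, 315, 436 and 629 FPKM from no dox to 49 h and 62.7 FPKM at day 6 (-3.31). Col5a2 went from 253 to 5.69 FPKM (-5.25) and Col3a1 from 93.5 to 9.45 FPKM (-3.18), both genes of fibrillar collagens. S100a4, also known as fibroblast-specific protein, went from 412 to 10.2 FPKM (-5.20). The matrix glycoprotein gene Thbs1 went from 700.1 to 63.8 FPKM (-3.44). The 25 listed members summed to 3190.5 FPKM at 49 h and 331 FPKM at day 6, against 1190.0 to 2833 FPKM in the 5 other libraries of ESC grown on feeders, 1273 FPKM in Sox17-XEN and 78.7 FPKM in wild-type XEN. The sum was thus highest at 49 h, and at day 6 it lay between the other ESC libraries and wild-type XEN. None of the defining collagens was at 0 at day 6. Twist1 was the 1 member with a positive difference, 0.76. The part of these genes in any other difference was not tested.

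Smooth muscle type contractile genes were lower in 11 of 16 cases, with a median of -3.06, the lowest of all 43 lists. Acta2 (chr19:34315580-34329826), the smooth muscle actin gene, was at 228, 195, 245, 348 and 656 FPKM from no dox to 49 h and 7.33 FPKM at day 6 (-6.30), with 204 in R1 ESC, 34.3 in Sox17-XEN and 1.15 in wild-type XEN. Actg2, another smooth muscle actin gene, went from 86.0 to 0.368 FPKM (-5.99), and the actin-binding Tagln from 475 to 9.17 FPKM (-5.55). The myosin light chain gene Myl9 went from 205 to 3.24 FPKM (-5.60). Cnn1 (calponin) went from 41.2 to 0.434 FPKM (-4.88) and the tropomyosin gene Tpm2 from 145 to 8.87 FPKM (-3.89). All 6 had their highest value of the 9 libraries at 49 h. The 16 members summed to 3164 FPKM at 49 h and 586 FPKM at day 6. Acta2, for example, had stood at 348 FPKM at 35 h, and its difference of day 6 from 35 h was -5.39. Actn1 (176 and 175 FPKM) and Tpm1 (466 and 139 FPKM), which most cells express, were within the limit. Feeder markers fell alongside these genes, as given above, and their part in the contractile differences was not tested.

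Contractile genes are classic targets of serum response factor, whose site is called the CArG box (2 C, 6 letters of A or T, 2 G, which reads the same pattern on both strands). Of 11 contractile genes with a listed promoter 2 hold one (Cnn2 and Myl9), against 1.63% of all promoters. Cnn2 was within the limit (-1.93). Acta2, Cnn1 and Tpm2 have a listed promoter without the box. It was found in 2.78% of the lower and 2.37% of the higher genes with a promoter. The stretch of the Myl9 promoter is shown with the box in capitals.
Myl9: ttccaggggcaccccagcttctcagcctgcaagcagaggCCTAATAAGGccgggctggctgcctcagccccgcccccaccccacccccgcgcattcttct
It lies at chr2:156775264-156775363 on the plus strand and ends 101 bases before the start, with the box beginning 161 bases before it.

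Chemokine genes gave the 2 largest downward differences among named genes. Of 13 chemokines and receptors 6 were lower and 0 higher, with a median of -1.80. Ccl2, a monocyte attractant, was at 91.0, 36.4, 52.0, 61.9 and 393 FPKM from no dox to 49 h and at 0.964 FPKM at day 6 (-7.65). Cxcl5 was at 14.7, 9.07, 15.8, 23.3 and 169 and then 0.132 FPKM (-7.23), and Cxcl1 at 7.61, 2.06, 5.90, 7.42 and 78.9 and then 0.60 FPKM (-5.64). In each case the 49 h library stood alone: it was above the 35 h library by 2.65, 2.80 and 3.25 on the log2 scale. Ccl7 went from 151 to 2.54 FPKM (-5.42). Ccl20 and Cxcl2 were at 0.706 and 0.119 FPKM at 35 h, at 27.4 and 11 FPKM at 49 h, and were listed at 0 at day 6, so no fold is given. Against 35 h in place of 49 h, 4 of 11 compared members were lower, where 3.43% of all genes were, and 2 higher (median -1.18), with -5.00 for Ccl2, -4.43 for Cxcl5, -3.42 for Ccl7 and -2.39 for Cxcl1. Il6, a cytokine gene, Mmp13 and Mmp3, which code for collagenase and stromelysin, and Ptx3, a soluble pattern receptor, were picked out after their values were seen because they had the same course: they were at 1.25, 3.45, 5.06 and 2.52 FPKM at 35 h and at 10.4, 30.5, 27.8 and 19 FPKM at 49 h. At day 6 Il6 was listed at 0, and the other 3 were at 0.634, 2.63 and 0.486 FPKM. Cxcl10 (6.10 and 8.89 FPKM) and Cxcl16 (6.91 and 13.2 FPKM) were within the limit in the step. Against 35 h they were the 2 higher members, by 3.01 and 2.16. Whether the 49 h peak belongs to feeders or to the Sox17 line was not tested.

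NF-κB is a known activator of these inflammatory genes. Its motif, taken here as 3 G, any 2 letters, 3 T and 2 C and searched on both strands, was found in 3 of 8 chemokine genes with a listed promoter, against 1.63% of all promoters, 2.08% of compared genes and 4.63% of the lower genes with a promoter. The 3 promoters are shown with each match in capitals, as they carry it close to the start.
Cxcl1: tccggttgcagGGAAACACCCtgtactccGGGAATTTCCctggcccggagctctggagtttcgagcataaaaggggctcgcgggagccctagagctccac
Cxcl2: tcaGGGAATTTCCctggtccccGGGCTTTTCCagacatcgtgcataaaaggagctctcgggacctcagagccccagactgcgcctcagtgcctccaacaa
Ccl20: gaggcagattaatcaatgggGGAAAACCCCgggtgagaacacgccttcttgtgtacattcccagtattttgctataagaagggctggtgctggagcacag
They end 1 base before the start, at chr5:90891145-90891244 on the plus strand, chr5:90903799-90903898 on the plus strand and chr1:83116666-83116765 on the plus strand. The promoters of Cxcl1 and Cxcl2 have 2 matches each, beginning 89 and 71 bases and 97 and 78 bases before the start, and that of Ccl20 has 1, at 80 bases. Ccl2, Ccl7 and Cxcl5 have no entry in the promoter table.

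Adhesion genes changed in both directions. Of 26 epithelial and mesenchymal genes 6 were higher and 9 lower. Higher were the junction genes Cldn6 (above), Cldn7 (13.8 to 93.2 FPKM, 2.67) and Ocln (2.15 to 27.3 FPKM, 3.16), the cadherin gene Cdh6 (1.07 to 19.7 FPKM, 3.32) and the keratin genes Krt18 (20.3 to 114 FPKM, 2.43) and Krt8 (27.0 to 119.6 FPKM, 2.1, and 1.87 after rescaling). Lower were Cldn4 (55.3 to 1.65 FPKM, -4.41), Cldn3 (-2.24) and Rab25 (-3.08) on the epithelial side and Cdh11 (-3.16), Cdh2, Vim, Snai2 (-2.18), Zeb1 (-2.46) and Zeb2 (-2.29) on the mesenchymal side. Cdh1, the E-cadherin gene, stood at 124 and 105 FPKM and Epcam at 65.9 and 74.0 FPKM, whereas in the XEN lines Cdh1 was at 2.83 and 1.63 FPKM. Snai1 stood at 19.6 and 45.5 FPKM. A further pair of lower genes lies outside the lists, the keratin gene Krt42 (88.6 to 0.265 FPKM, -6.15) and Ifitm1 (244 to 2.26 FPKM, -6.23), an interferon-inducible membrane gene. Of 15 Hippo pathway genes 1 was higher and 3 were lower (6.67% and 20%, against 4.16% and 3.87% of all genes compared). Amot went from 35.5 to 201 FPKM (2.47), and Axl (-3.47), Ctgf and Ankrd1 (-2.52) were lower.

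Cell cycle genes differed little. Of 24 DNA replication and mitosis genes 0 were past the limit, with a median of 0.16 (-0.07 after rescaling). Their differences ran from -1.64 for the cyclin gene Ccne1 to 1.11 for the mitotic kinase gene Aurkb, and 13 of 24 were above 0. Of 22 regulators of G1 2 were lower (9.09%, against 3.87% of all genes compared), Ccnd1 (37.1 to 3.66 FPKM, -3.03) and Myc (20.3 to 1.75 FPKM, -2.96). Cdkn1b, a cyclin kinase inhibitor gene, stood at 13.1 and 46.1 FPKM (1.74).

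Energy metabolism was near the median gene. Of 22 nuclear respiratory chain genes 0 were past the limit (median 0.09, and -0.14 after rescaling), and of 24 glycolysis and hypoxia genes only Ldhb was, going from 148 to 29.8 FPKM (-2.28). In cholesterol and fatty acid synthesis Insig1, a sterol sensor partner (32.1 to 161 FPKM, 2.29), was higher and Idi1 (37.5 to 5.17 FPKM, -2.64) lower among 20 genes (median -0.45). That is 5% each way, near the 4.16% and 3.87% of all genes compared. Of the 12 mitochondrially encoded genes the 2 ribosomal RNAs mt-Rnr1 (39.2 to 455 FPKM, 3.50) and mt-Rnr2 (23.9 to 198 FPKM, 3.0) were higher. Both also varied widely among ESC libraries. The line without dox stood above R1 ESC by 2.44 for mt-Rnr1 and 4.28 for mt-Rnr2, and mt-Rnr2 had -3.26 from no dox to 7 h. Of 15 housekeeping genes Tfrc, the transferrin receptor gene, was the only one past the limit, at 62.1, 58.1, 49.3, 57.6, 55.9 and 2.32 FPKM from no dox to day 6 (-4.10), and it was at 53.3 in R1 ESC, 19.99 in Sox17-XEN and 50.2 in wild-type XEN.

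Among chromatin regulators 0 of 11 DNA methylation genes and 3 of 17 Polycomb genes were past the limit, where 8.03% of all genes compared were. Of the Polycomb genes 5.88% were higher and 11.8% lower, against 4.16% and 3.87% of all genes. Phf19, a Polycomb accessory factor, was at 6.13, 39.8, 64.1, 60.5, 52.5 and 0.470 FPKM from no dox to day 6 (-5.18): it was high from 7 to 49 h and under 1 FPKM afterwards. Sox21 had the same course (0.253, 24.2, 33.7, 23.5, 22.6 and 1.39 FPKM, -3.31). Phc1 went from 112 to 12.5 FPKM (-3.06) and Ezh1 from 8.15 to 59.9 FPKM (2.74). Dnmt3l, which XEN lines lack (0.642 and 2.05 FPKM), stood at 125 and 252 FPKM, and Cbx7 at 99.2 and 86.8 FPKM.

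Imprinted genes were higher in 5 of 20 cases and lower in 1 (25% and 5%, against 4.16% and 3.87% of all genes compared). Imprinted genes are expressed from 1 parental copy and often lie in clusters. Meg3 (143 to 739 FPKM, 2.37), Rian (55.3 to 326 FPKM, 2.54) and Mirg (5.93 to 46.0 FPKM, 2.76) are maternally expressed noncoding RNAs of the Dlk1 region. Igf2 (26.0 to 170.1 FPKM, 2.67) is a paternally expressed growth factor gene. The remaining one, Peg3, went from 12.2 to 77.5 FPKM (2.57), and Ndn (-2.12) was lower. In wild-type XEN Meg3, Rian, Mirg and Igf2 were all under 0.4 FPKM. Of 12 genes of the IGF axis Igf2 was higher (8.33%). The binding protein genes Igfbp2 (105 to 12.0 FPKM, -3.03) and Igfbp3 (-2.40) were lower (16.7%).

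Markers of other lineages gave no common direction. Among 9 trophoblast genes Plac1 (0.783 to 8.12 FPKM, 2.36) was higher and Tfap2c (51.7 to 1.57 FPKM, -4.36) lower, Cdx2 was at 1.61 FPKM and Tpbpa was listed at 0. Of 6 mesoderm genes 0 were past the limit, and T stood at 1.99 and 0.352 FPKM. Among 3 neuroectoderm genes Tubb3 (15.6 to 0.148 FPKM, -3.85) was lower. Of 8 endothelial and blood genes Esam (2.19 to 34.1 FPKM, 3.46) and Runx1 (4.73 to 30.1 FPKM, 2.44) were higher and Pecam1 (20.6 to 1.12 FPKM, -3.35), which ESC also express, lower, with Ptprc and Emcn listed at 0 at day 6. Of 12 SOX and GATA genes 3 were higher (Gata4, Gata6 and Sox7) and 4 lower: Sox2, Sox21, Sox15 (17.7 to 0.867 FPKM, -3.32) and Sox13 (46.2 to 6.81 FPKM, -2.60).

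Immediate early genes, which cell dissociation is known to induce, were higher in 4 of 17 cases (23.5%, against 4.16% of all genes compared). Fos went from 1.19 to 37.5 FPKM (4.14), Fosb from 0.204 to 13.3 FPKM (3.57), Atf3 from 1.32 to 21.2 FPKM (3.26) and Egr1 as given above. The 18 listed members summed to 365, 239, 237, 237 and 311 FPKM from no dox to 49 h and 439 FPKM at day 6. They summed to 287 FPKM in R1 ESC and 436 FPKM in both XEN lines. Junb (32.0 and 31.5 FPKM), Ier2 (40.8 and 28.6 FPKM) and Dusp1 (24.0 and 8.17 FPKM) were within the limit. Any part of sorting in these values was not tested.

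The step was set beside wild-type XEN against R1 ESC, a contrast that shares no library with it, in which 9.15% of genes were higher and 7.27% lower. Of the 561 genes higher in the step 493 could be compared there, and 284 of them (57.6%) were higher in XEN and 26 (5.27%) lower. Of the 521 lower genes 469 could be compared, and 272 (58.0%) were lower in XEN and 18 (3.84%) higher. Over all genes of the step that could be compared, 9.01% were higher in XEN and 7.15% lower. Seen from the other side, 25.1% of the 1131 genes higher in XEN were also higher in the step and 30.3% of the 898 lower genes lower. With the median shift removed from both contrasts the 2 shares of the step were 51.0% and 62.1%.

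Sox17-XEN against the line without dox, which also shares no library with the step, gave 237 of 486 higher genes higher (48.8%, against 6.34% of all genes in that contrast) and 205 of 484 lower genes lower (42.4%, against 5.51%). Higher in the step and in both XEN contrasts were 197 genes, led by Cubn, Lgals2, Aqp8, Mttp and Nxf7, and 175 genes were lower in all 3, led by Ccl2, Cxcl5, Acta2, Ifitm1 and Krt42. Feeder markers summed to 2833 FPKM without dox and 1273 FPKM in Sox17-XEN, and their part in these shared lower genes was not tested. Of the 561 higher genes 467 could be compared in both XEN contrasts, and 155 of these (33.2%) were higher in neither, led by Car4, Npl and Ggt1. Npl, which breaks down sialic acid, went from 11.2 to 431 FPKM (5.15), with 2.83 and 32.7 FPKM in the XEN lines. Of the 521 lower genes 461 could be compared in both, and 160 (34.7%) were lower in neither, led by Cxcl1, Mmp13 and Tfrc.

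A small set went the opposite way in both XEN contrasts. It held 12 of the higher genes, among them the lipoprotein gene Apoc1 (3.73 in the step, -4.84 in wild-type XEN, -3.98 in Sox17-XEN), the junction gene Cldn7 (2.67, -4.19 and -2.70), the protease-activated receptor gene F2rl1 (2.89, -3.70 and -3.17) and Rian (2.54, -6.56 and -2.62). Apoc1 was at 18.3, 18.4, 18.9, 19.3 and 19.8 FPKM from no dox to 49 h and 275 FPKM at day 6, and at 0.223 and 0.415 FPKM in the XEN lines. Among the lower genes 6 did so, including Ctgf (-3.08, 3.34 and 2.26) and Fkbp10, a collagen chaperone gene (-2.32, 2.47 and 2.14).

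Earlier movement under dox was read from 35 h against no dox, which shares no library with the step either, at 1 log2 unit, since few genes were past 2 there. In that contrast 2.96% of genes were higher and 2.3% lower (2.69% and 1.68% of the genes compared in both). Of the 423 higher genes of the step that could be compared 47 (11.1%) were higher at 35 h and 19 (4.49%) lower, and 138 were under 1 FPKM in both of those libraries or not OK. Of 493 lower genes 60 (12.2%) had been higher at 35 h and 30 (6.09%) lower. Foxa1, Phf19 and Sox21 were among the 60. In the higher genes and over all genes compared in both, too, more had been higher at 35 h than lower. A call of lower also needs a high level at 49 h, which favours genes already raised at 35 h. The excess is therefore not particular to the lower genes.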

How the data were processed

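The 9 libraries were made from Trizol-extracted RNA with the TruSeq RNA kit, per the labels' protocols. Build mm9 and the tools Cuffdiff, Cufflinks (2.1.2) and TopHat2 (2.0.11) are listed, per the submitters' processing notes. The authors deposited 1 table of FPKM per gene with a 95% interval and a status for each library; how replicates or multi-mapping reads were treated is not given in the sources used here. Reads and total counts were not used here, so depth is known only from the steps of low FPKM values (under 0.2 FPKM, ratios within 0.01 on the log2 scale), and low genes carry the largest counting error.

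From these values differences in log2(FPKM + 1) were computed with Python 3.11.15, pandas 2.3.3 and numpy 2.4.6, over rows with status OK and at least 1 FPKM in 1 of the 2 libraries; figures used matplotlib 3.10.9. With 1 library a group no test was run, and a difference of 2 log2 units was called. The calling step was tested on simulated data. Of the 37975 rows 38.9% share a locus with another row.

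The genes, 43 gene lists and rules were chosen with earlier results of these data known. Genes named are Sox17, Amn, Cubn, Nanog, Sox2, Acta2, the 15 largest differences each way among symbols reaching 10 FPKM, and up to 6 members per list; other members named were picked after their values were seen. Promoters are from RefSeq (GRCm38.p6). Alternatives were the pseudocount, the minimum, the scaling, the size called, the authors' intervals, rows with a locus of their own, and the earlier library. A few genes that these rules name are not reported here.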

Additional observations from a re-analysis of the deposited data

How the results depend on the processing

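No paired analysis was possible because each group is 1 library. With a pseudocount of 0.1 in place of 1, 879 genes were higher and 1191 lower, and with 5 these were 263 and 166. At 1 log2 unit 2140 genes were higher and 1733 lower, and at 3 log2 units 186 and 179. Where the authors' deposited intervals also had to be apart, 2 and 0 remained. Among rows with a locus of their own 330 were higher and 321 lower. Lists with at least 50% of members called one way numbered 7 of 43, against 12 with a pseudocount of 0.1 and 2 with 5. The share of higher genes that were also higher in wild-type XEN was 51.0% after rescaling, 63.8% with a pseudocount of 0.1 and 66.6% at 1 log2 unit. For the lower genes it was 71.0% with a pseudocount of 0.1 and 63.0% at 1 log2 unit.

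Without the minimum the counts stayed at 561 and 521, which was fixed in advance. With a pseudocount of 1, a gene under 1 FPKM in both libraries cannot differ by 2 log2 units. At a minimum of 5 FPKM the counts were 542 and 481. Against 35 h they were 662 and 462, and against the mean of 21, 35 and 49 h 637 and 462. All 180 named genes past the limit stayed so with a pseudocount of 0.1. That was fixed in advance, since a smaller pseudocount enlarges every difference and keeps its sign. Of these 180 genes, 172 were past the limit after rescaling and 169 against 35 h, and 0 changed sign. Against 35 h, those within the limit included Ankrd1, Col4a5, Insig1, Ndn, Plau, Slc16a1, Vim and Wnt5a. After rescaling the medians of the glycolysis (-0.03), housekeeping (-0.16), respiratory (-0.14), replication (-0.07), IGF (-0.07) and mesoderm (-0.22) lists were below 0. The median of visceral endoderm was the highest of the 43 lists as reported, with a pseudocount of 0.1 and after rescaling; that of the primitive endoderm regulators was higher with a pseudocount of 5 (2.25 against 1.41), against 35 h (3.57 against 3.17) and against the mean of the 3 libraries (3.72 against 3.15). With a pseudocount of 5, 7 visceral endoderm genes and 1 transporter were higher, and 2 core pluripotency, 5 pluripotency-associated, 10 feeder and 3 adhesion genes lower. Against 35 h and against that mean 17 lysosomal genes were higher. With no replicate and unknown read totals, the depth of the day 6 library limits low genes most.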

Other observations

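Gene families grouped by symbol, a grouping chosen after the data were seen, also differed in the step. Over all genes compared, 4.16% were higher and 3.87% lower. Of 28 compared collagen genes 16 were lower and 0 higher, with a median of -2.13. Col4a1 and Col4a2, which have no usable day 6 value, are not among the 28, so the count of 0 higher does not cover them. Of 214 solute carrier genes 25 were higher and 6 lower (median 0.56). Of 57 Rab genes, which direct vesicle traffic, 5 were higher and 1 lower. Ribosomal protein genes held 0 calls among 78 (median 0.24), and zinc finger genes of the Zfp series 2 higher and 2 lower among 321. Small nucleolar RNAs had 11 higher and 25 lower among 80.

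Chromosome medians of the step lay between 0.15 (chromosome 13) and 0.36 (chromosome 7), a range of 0.20 on the log2 scale.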
